A study of Mus musculus with 4 samples.

Results

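ZFP57 binding was examined at the control regions of 4 imprinted clusters in which a large noncoding RNA is expressed from the paternal chromosome: Snrpn, KvDMR1 (Kcnq1ot1), Igf2r (Airn) and Gnas. Sites were taken from the deposited list of binding sites when their annotation named 1 of these loci or when they overlapped the germline differentially methylated region (DMR) Snrpn, KvDMR1, Igf2r or Gnas_ProXL by at least 1 bp in the NCBIM37 (mm9) assembly. This gave 10 of the 158 sites: 3 at Snrpn, 1 at KvDMR1, 4 at Igf2r and 2 at Gnas. All 10 met both conditions and lay wholly inside their DMR. ZFP57 was immunoprecipitated from hybrid mouse embryonic stem (ES) cells of reciprocal crosses. BC cells had a C57BL/6J (BL6) mother and a Cast/EiJ (Cast) father (labelled C57BL/6J x Cast/EiJ), and CB cells the reverse (Cast/EiJ x C57BL/6J). Each cross was represented by 1 cell line, 1 ChIP library and 1 input library, so differences between crosses have no replicate check, and cross, cell line and library cannot be told apart. Reads over single-nucleotide polymorphisms (SNPs) between the strains were assigned to an allele: 10541 in BC and 5904 in CB over all 158 sites, of which 620 and 385 fell in the 10 sites. These reads come from the listed sites alone and are not the depth of the libraries.

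At an imprinting control region, DNA methylation is set in the germline of 1 parent and kept on that parent's chromosome after fertilization. The control regions of these clusters are methylated on the maternal chromosome. On the unmethylated paternal chromosome they act as promoters, from which Kcnq1ot1, Airn, Nespas or the long Snrpn transcript that hosts small nucleolar RNAs is made. Kcnq1ot1 and Airn silence neighbouring protein-coding genes in cis. ZFP57 is a KRAB zinc finger protein that binds the sequence TGCCGC when its CpG is methylated and recruits KAP1, through which methylation is maintained.

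The sequences of the 5 sites with the highest density in BC are shown, which come from all 4 clusters and differ in the number and form of their motifs. The motif was searched as TGCCGCN on both strands of mm9 and is given in capitals, so that a motif on the minus strand reads NGCGGCA. Snrpn sites are numbered along the chromosome; Snrpn is on the minus strand, so that site 3 is at the transcription start and site 1 farthest into the gene. For Snrpn site 1 the first 300 of 351 bases are printed, and for the Gnas_ProXL site 10 bases are added on each side.
Snrpn site 1, chr7:67149050-67149349, plus strand: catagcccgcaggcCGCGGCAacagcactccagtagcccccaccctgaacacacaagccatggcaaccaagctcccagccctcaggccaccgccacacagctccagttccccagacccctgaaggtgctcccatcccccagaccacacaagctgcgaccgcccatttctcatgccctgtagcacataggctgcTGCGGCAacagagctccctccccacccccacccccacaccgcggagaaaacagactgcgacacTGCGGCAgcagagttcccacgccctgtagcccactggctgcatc
Snrpn site 2, chr7:67149639-67149740, plus strand: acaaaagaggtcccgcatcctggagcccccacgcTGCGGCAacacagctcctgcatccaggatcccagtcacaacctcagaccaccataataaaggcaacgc
KvDMR1 site, chr7:150481549-150481660, plus strand: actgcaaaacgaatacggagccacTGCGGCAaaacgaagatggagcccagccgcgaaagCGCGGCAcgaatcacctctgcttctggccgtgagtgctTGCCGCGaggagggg
Igf2r site 3, chr17:12935108-12935280, plus strand: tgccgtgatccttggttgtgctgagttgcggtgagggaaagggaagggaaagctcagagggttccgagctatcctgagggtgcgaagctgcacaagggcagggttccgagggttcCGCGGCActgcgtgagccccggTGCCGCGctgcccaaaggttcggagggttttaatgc
Gnas_ProXL site, chr2:174125192-174125350, plus strand: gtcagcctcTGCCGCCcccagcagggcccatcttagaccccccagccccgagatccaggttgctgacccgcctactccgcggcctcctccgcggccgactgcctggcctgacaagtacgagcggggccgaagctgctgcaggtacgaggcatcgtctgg

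At Snrpn, site 1 (chr7:67149050-67149400) and site 2 (chr7:67149639-67149740) were intronic, starting 642 and 302 bases downstream of the nearest annotated transcription start. Site 3 (chr7:67149979-67150090) spanned that start, from -48 to 63, and overlapped the 5′ untranslated exon. The KvDMR1 site (chr7:150481549-150481660) was in an intron of Kcnq1, the potassium channel gene within which Kcnq1ot1 is transcribed in antisense. The 4 Igf2r sites were in an intron of Igf2r, which encodes the receptor for insulin-like growth factor 2, and all lay downstream of the outermost start of Airn, annotated as a lincRNA on the opposite strand. Their first bases were 102, 422, 931 and 1272 bases from that start. Site 1 (chr17:12934279-12934390) overlapped the end of the first exon of Airn, whereas site 2 (chr17:12934599-12934900), site 3 (chr17:12935108-12935280) and site 4 (chr17:12935449-12935560) were intronic to it. At Gnas, which encodes the stimulatory G protein subunit and its XL variant, the Gnas_Nespas site (chr2:174121460-174121620) lay 523 bases upstream of Nespas, annotated as an antisense lincRNA, and overlapped an untranslated exon of a Gnas transcript. The Gnas_ProXL site (chr2:174125202-174125340) was in coding exon sequence, 1842 bases from a Gnas transcript start.

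In mm9 the 10 sites held 18 motifs, of which 17 ended in a purine (TGCCGCA or TGCCGCG) and 1 in a pyrimidine (TGCCGCC or TGCCGCT). The purine form thus made up 94.4% of the motifs, beside 80.3% of 228 motifs in all 158 sites. In the 17 other sites called maternal by the allele test below it was 83.9% of 31 motifs. At least 1 motif was present in 9 of the 10 sites and in 127 of the 158 (80.4%). Per the study's methods, peaks without a motif were not considered for the list, so the presence of a motif was partly fixed by how sites were chosen. The last base of the motif differed between the clusters. Of the 6 Snrpn motifs, 5 were TGCCGCA, while of the 7 Igf2r motifs 6 were TGCCGCG and 0 were TGCCGCA. Over all sites the last base was A at 43.4% and G at 36.8% of the 228 motifs. KvDMR1 had 1 motif of the first kind and 2 of the second. The base before the motif was T at 5 of 6 Snrpn motifs and G at 4 of 7 Igf2r motifs, and over all sites T and G stood there at 35.1% and 25.9% of motifs. These are counts over few motifs and were not tested.

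The deposited motif numbers equalled the count in mm9 at 9 of the 10 sites, beside 146 of the 154 sites compared in the whole list. The exception among the 10 was the Gnas_ProXL site, listed with 0 purine and 2 pyrimidine motifs, where mm9 held none between the listed borders. In the printed sequence a TGCCGCC starts 1 base before the left border. Another, beyond the printed sequence, starts 55 bases before that border. With the deposited numbers the purine form was 17 of 20 motifs (85.0%), beside 185 of 230 (80.4%) in all 158 sites. It was 27 of 32 (84.4%) in the 17 other sites called maternal.

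Neighbouring sites of a cluster shared sequence around some motifs. The following windows of 10 bases on each side, read on the strand of the motif, show the pairs with the most equal flanking bases and the closely spaced pair at Gnas_Nespas.
Snrpn site 1, motif 1, chr7:67149054-67149080, minus strand: ggagtgctgtTGCCGCGgcctgcgggc
Snrpn site 2, chr7:67149663-67149689, minus strand: ggagctgtgtTGCCGCAgcgtgggggc
Igf2r site 2, motif 3, chr17:12934874-12934900, minus strand: gctcgcgcagTGCCGCGgaacccaccg
Igf2r site 3, motif 1, chr17:12935213-12935239, minus strand: gctcacgcagTGCCGCGgaaccctcgg
Gnas_Nespas site, motif 1, chr2:174121591-174121617, plus strand: ggtgtgcgcgTGCCGCGggcgcgcggc
Gnas_Nespas site, motif 2, chr2:174121602-174121628, minus strand: ttttttgtttTGCCGCGcgcccgcggc
Of the 20 flanking bases, 17 were equal between the Igf2r windows and 15 between the Snrpn windows. The median over 40 pairs of motifs within a cluster was 7, and over 113 pairs from different clusters it was 6, with at most 11 equal. The longest run of bases common to Igf2r sites 2 and 3 was 18 bases and included the motif shown. That common to Snrpn sites 1 and 2 was 12 bases and held the motif of site 2, together with the second motif of site 1 rather than the first one shown.

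The DMRs held more motifs than the sites. Of 35 motifs in the 4 DMRs, 18 (51.4%) lay in a site, and the sites covered 11.5% of the DMR sequence. Since sites were listed partly for holding a motif, a higher share of motifs than of sequence is in part built in, and nothing is read from it. By form, 17 of the 26 purine motifs (65.4%) and 1 of the 9 pyrimidine motifs (11.1%) were inside a site; with sites extended by 10 bp on each side these were 19 and 2 (22.2% of the pyrimidine motifs). At KvDMR1 all 3 motifs of the DMR lay in the single site of 112 bases, at Igf2r 7 of 8 lay in a site, and at Snrpn 6 of 10. At Gnas_ProXL 2 of 14 lay in a site, and 4 with sites extended by 10 bp. The part of each DMR that its sites covered, on which these shares depend, was 42.4% at Igf2r, 13.4% at Snrpn, 5.40% at KvDMR1 and 4.48% at Gnas_ProXL. The Gnas_ProXL DMR had equal numbers of purine and pyrimidine motifs (7 and 7), of which 2 and 0 lay in a site. It held 7 of the 9 pyrimidine motifs, so the shares by form cannot be told apart from a difference between clusters. With sites extended by 50 bp on each side, 68.6% of all motifs and 84.6% of the purine motifs were inside. At Snrpn 7 of 10 motifs were inside at 10 bp and 9 of 10 at 50 bp, and at Igf2r 8 of 8 at 50 bp. The pyrimidine, KvDMR1 and Gnas_ProXL numbers were the same at 50 bp as at 10 bp. The 10 bp extension, and the 50 bp shares by form and cluster, were chosen after the data were seen.

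**Figure D1:**
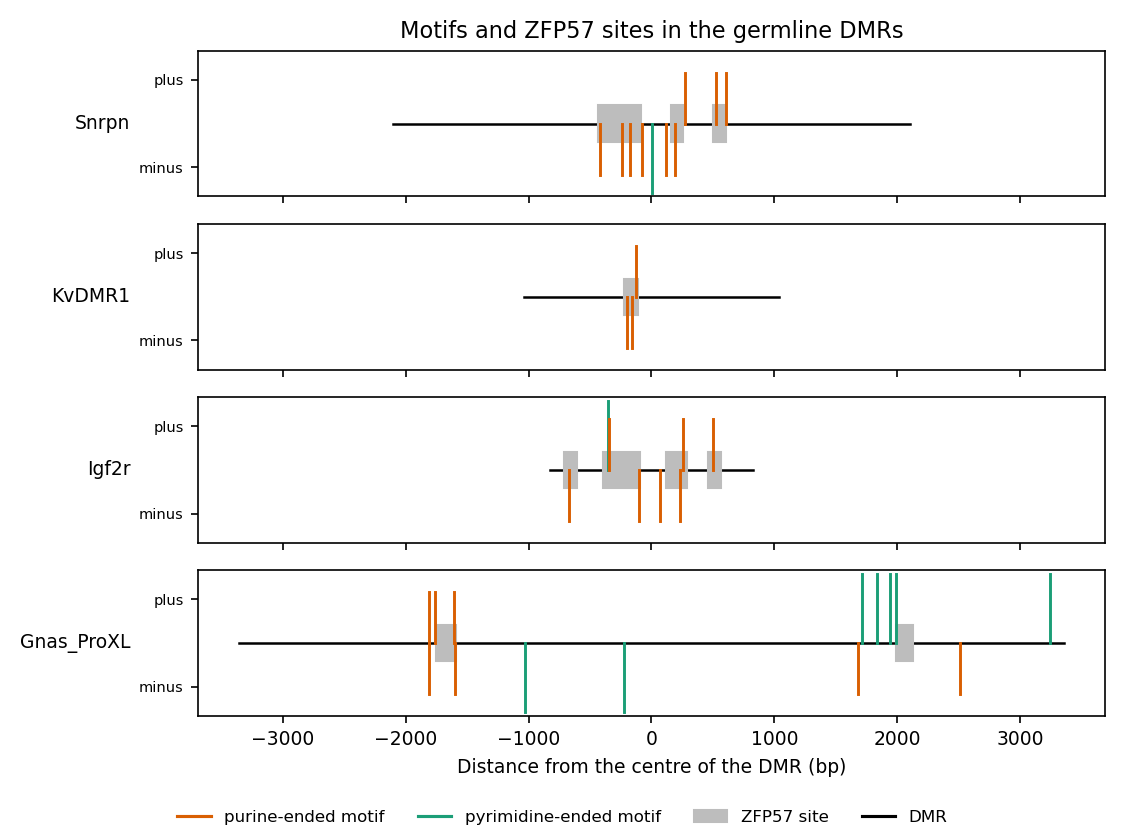
Each panel shows a germline DMR as a line, with the distance from its centre in bp, ZFP57 sites as grey boxes and TGCCGCN motifs as vertical lines pointing up (plus strand) or down (minus strand), short for purine-ended and long for pyrimidine-ended motifs. The 3 KvDMR1 motifs fall in 1 site, whereas 12 of the 14 Gnas_ProXL motifs fall outside the listed borders, 2 of them within 10 bp.

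ZFP57 density was deposited as a score, the number of reads in a site normalised for its length and the reads aligned in the library, and rounded to whole numbers. Because the deposited sites were picked for high density, the level is a description. The KvDMR1 site scored 281 in BC, the second highest of the 158 sites, and 113 in CB, the ninth highest. At Snrpn, site 2 had 174 in BC and 71 in CB, site 1 had 153 and 47, and site 3 had 114 and 48. Site 2 was thus the densest Snrpn site in both crosses. It held 1 motif in 102 bases, against 3 in 351 bases at site 1 and 2 in 112 at site 3. The score is normalised for length and the motif numbers are not. Purine motifs also lay just outside site 2. Measured from the DMR centre, it spans 157 to 258 bp, and they lay at 115 to 121 and 271 to 277 bp. No relation of density to motif number was tested. At Igf2r, site 3 was the densest in both crosses, with 189 in BC and 65 in CB. The other Igf2r sites were low and changed places: site 2 had 87 and 18, site 1 had 77 and 22, and site 4 had 52 and 35, so that site 4 was last in BC and second in CB. At Gnas the order turned over, since the Gnas_ProXL site had 223 in BC and 32 in CB and the Gnas_Nespas site 129 and 55. The medians over the 10 sites were 141 in BC and 47.5 in CB, beside 107 and 38.5 over all 158 sites. Over the 17 other sites called maternal by the allele test below they were 180 and 47.

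**Figure D2:**
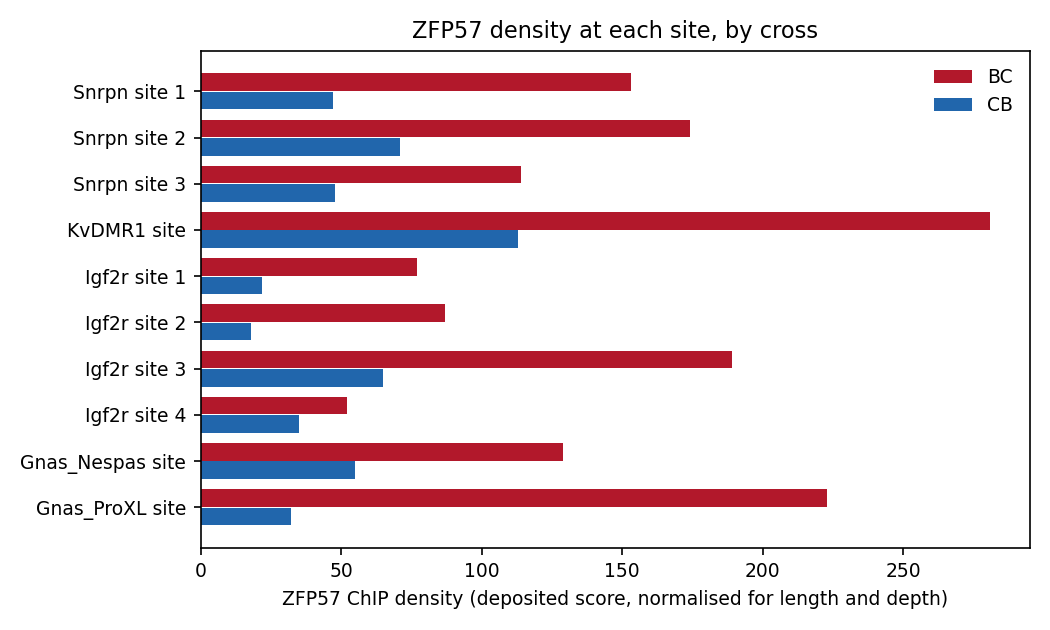
Bars give the deposited ZFP57 density score of each site in BC (red) and CB (blue), 1 library each and so without error bars. KvDMR1 is highest in both crosses, at 281 and 113, and the Gnas_ProXL site falls from 223 in BC to 32 in CB.

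The density was higher in BC at all 10 sites, as it was at 152 of all 158. The ratio of BC to CB had a median of 2.70 over the 10 sites and 2.79 over all sites, so the higher BC score was seen across the whole list. It was 3.26, 2.45 and 2.38 at Snrpn sites 1 to 3 and 2.49 at KvDMR1. At Igf2r it was 3.50, 4.83, 2.91 and 1.49 at sites 1 to 4, and at Gnas 2.35 at Gnas_Nespas and 6.97 at Gnas_ProXL. Single sites stood farthest from the median: Gnas_ProXL and Igf2r site 2 above it and Igf2r site 4 below it. Only 6 of the 158 sites had a higher ratio than Gnas_ProXL, while 147 had a higher ratio than Igf2r site 4. The rounding of the scores allows 6.85 to 7.10 at the first and 1.45 to 1.52 at the second. With 1 library per cross these ratios were not tested.

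Allele-specific reads were present at 9 of the 10 sites, from 25 at Gnas_Nespas to 185 at Igf2r site 3. Igf2r site 1 held no SNP and gave no allele information. In BC a BL6 read is maternal and in CB a Cast read. At Snrpn site 1, the maternal allele gave 86 of 94 BC reads and 65 of 68 CB reads. Snrpn site 2 had 95 of 101 and 78 of 79, and site 3 had 25 of 25 and 20 of 21. Every Snrpn site was thus read mainly from the maternal chromosome, whichever strain that was. The KvDMR1 site had 102 of 108 maternal reads in BC and 60 of 60 in CB; with 0 paternal reads of 60, the paternal share could be up to 5.00% by a limit of 3 reads and 6.02% by the Wilson interval. Igf2r site 2 had 41 of 45 and 26 of 27, site 3 had 112 of 117 and 66 of 68, and site 4 had 42 of 43 and 40 of 45. Site 4 was the only Igf2r site whose paternal share was higher in CB, at 11.1% against 2.33% in BC (exact p = 0.203). At Gnas_ProXL the maternal reads were 61 of 64 (BC) and 13 of 15 (CB). At Gnas_Nespas all 23 BC reads and both CB reads were maternal.

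**Figure D3:**
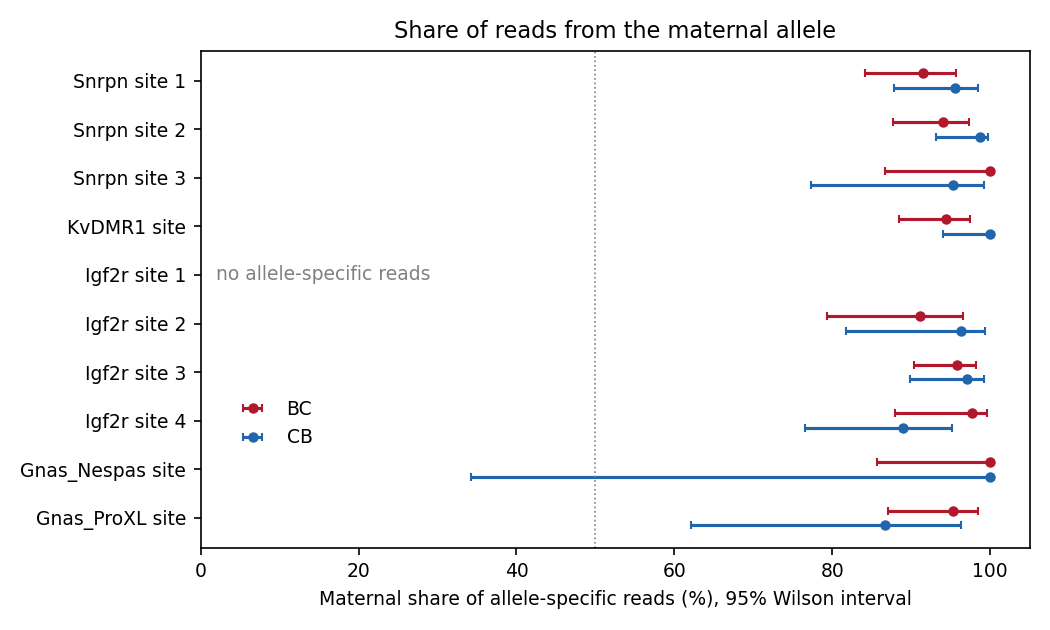
Points give the percentage of allele-specific reads from the maternal allele at each site in BC (red) and CB (blue), with 95% Wilson intervals that cover counting error only; the dotted line marks 50%. All points are above 86%, and the widest interval is that of the 2 CB reads at Gnas_Nespas (34.2 to 100%).

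A two-sided Fisher's exact test of BL6 and Cast reads by cross was run on the 116 sites with an allele-specific read; it compares the reads of these libraries. At the threshold of 0.0001 used by the study, 8 of the 9 sites with reads were called maternal. Over all 116 sites tested, these 8 included, 21.6% were. Among the called sites, the exact p ran from 1.64e-42 at Snrpn site 2 to 2.04e-10 at Gnas_ProXL. The Gnas_Nespas site missed the threshold (exact p = 0.00333, 0.0133 after Benjamini-Hochberg adjustment), with 2 reads in CB. This is the lowest exact p that its read numbers allow, so it could not have been called at 0.0001.

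Summed over sites and crosses, 95.1% (369 of 388; 95% Wilson interval 92.5 to 96.8%) of the reads were maternal at Snrpn. The maternal share was 96.4% at KvDMR1 (162 of 168; 92.4 to 98.4%), 94.8% at Igf2r (327 of 345; 91.9 to 96.7%) and 95.2% at Gnas (99 of 104; 89.2 to 97.9%). These intervals overlap throughout. For comparison, the median was 94.0% over the other 10 autosomal DMRs with a site called maternal, with a range of 86.8 to 98.6%. Those DMRs were kept for a maternal call on the same reads, so a high share among them is built in. The DMRs were compared in pairs by Fisher's exact test, with adjustment over all 91 pairs of the 14 DMRs. None of the 6 pairs among the 4 clusters passed an adjusted p of 0.05, nor an unadjusted one, while 6.59% of all pairs passed after adjustment. The interval of the difference was narrowest for Igf2r minus Snrpn, at -3.68 to 2.91 percentage points, and widest for KvDMR1 and Gnas, at -7.50 to 3.61 points for Gnas minus KvDMR1. Differences of a few points were therefore not detectable at this depth.

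Within the clusters, 7 pairs of neighbouring sites had reads at both sites: 3 at Snrpn, 3 at Igf2r and 1 at Gnas. None differed in maternal share after adjustment over the 18 pairs of deposited sites with starts within 10000 bp, of which 0% passed, and none at an unadjusted p of 0.05. The lowest exact p was 0.325, for Igf2r sites 2 and 3 (adjusted exact p = 0.591). Between the 2 Gnas sites the maternal share differed by 6.33 points (-7.47 to 13.97; exact p = 0.334).

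The crosses were then compared for the share of maternal reads at each site. Such a difference is what a preference for the allele of 1 strain would give, and it cannot be told apart from a difference between the cell lines or libraries. None of the 9 sites with reads differed (adjusted p of 0.05), beside 36.2% of the 116 sites tested, and none had an unadjusted p under 0.05. KvDMR1 came nearest, with 5.56% paternal reads in BC (6 of 108; 2.57 to 11.6%) and 0 of 60 in CB (exact p = 0.0895, adjusted 0.216). Over the clusters the sign was mixed. At Snrpn 6.36% of reads were paternal in BC and 2.98% in CB, whereas at Gnas these were 3.45% and 11.8%, the latter from 2 of 17 reads. At Igf2r they were 4.88% and 5.71%.

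The crosses were also compared by the number of allele-specific reads. These are part of the reads behind the density score, from the same libraries, so the measures are not independent. Their number is not normalised for library size, and over all 158 sites the ratio of BC to CB reads was 1.79. The study lists more aligned reads for the CB ChIP library than for the BC one, both common to the strains and allele-specific. At the 3 Snrpn sites the ratios were close together, at 1.38, 1.28 and 1.19. KvDMR1 had 1.80. Among the Igf2r sites, site 2 and site 3 had 1.67 and 1.72, and site 4 had 0.956 (43 and 45 reads). The split of site 4 differed from that of site 3 at an exact p of 0.0261, which did not pass after adjustment (adjusted exact p = 0.0941). None of the 7 pairs passed after adjustment, beside 16.7% of the 18 pairs tested. At Gnas the counts and the scores were ordered differently. The Gnas_Nespas site had 23 reads in BC and 2 in CB, a ratio of 11.5 beside a density ratio of 2.35, and the Gnas_ProXL site had 64 and 15, a ratio of 4.27 beside a density ratio of 6.97. The read split of the Gnas sites did not differ by the test (exact p = 0.351), and the reason for the order was not tested.

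**Figure D4:**
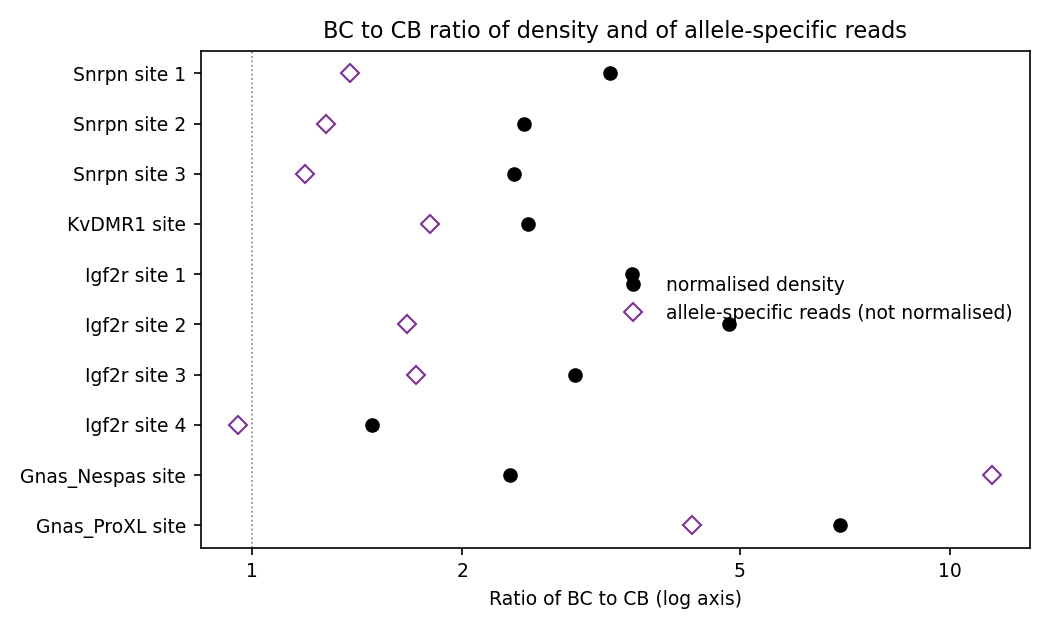
For each site the ratio of BC to CB is shown on a log axis for the normalised density (filled circles) and for the allele-specific reads, which are not normalised (open diamonds). The diamond lies left of the circle at all sites with reads except Gnas_Nespas, where the read ratio is 11.5 and the density ratio 2.35.

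Base composition also varied among the sites. The ratio of observed to expected CpG was lowest at Snrpn sites 1 and 2, at 0.414 and 0.523, and highest at KvDMR1, at 1.14. Igf2r site 4, which had the lowest BC density, had 0.583. Snrpn site 3, at the transcription start, had 0.900 and a lower density than site 2 in both crosses. The median over the 10 sites was 0.841, beside 0.696 over all 158 sites, and the GC content had medians of 61.2% and 61.6%. Over the 17 other sites called maternal these medians were 0.876 and 62.6%. By GC content the Gnas_ProXL site (71.2%) and Igf2r site 2 (69.9%) were the highest of the 10, and they also had the highest density ratios of BC to CB. That relation was seen over 10 sites that share their libraries and was not tested.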

How the data were processed

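Per the labels, reads were aligned with Bowtie to NCBIM37; the authors kept unique reads, assigned those over SNPs to BL6 or Cast, and called sites with MACS. In the deposited table, allele-specific reads are counts, density is a score (normalised for site length and aligned reads, then rounded) and ranks are a percent. Columns with the authors' own p-values and calls were not used. The input libraries have no values of their own in the table. Fisher's exact tests (two-sided), Benjamini-Hochberg adjustment over the whole table and 95% Wilson intervals were computed with SciPy 1.17.1; intervals and limits (3 counts for a count of 0) cover counting error only. Motifs and sequences came from NCBIM37 and gene features from GENCODE M1, the build of the files. DMR borders were those listed by the study. Every site found by the rule is named. The tests were tested on simulated data. The members and lists were chosen with earlier results of these data known. Alternatives covered thresholds, halved reads, single crosses, left-out sites and motif borders. With 1 library per cross no replicate could be left out.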

Additional observations from a re-analysis of the deposited data

How the results depend on the processing

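Of 68 alternatives to 20 results, 58 left the result on the same side of its threshold, within 1.5 times its count or, for a share, within its 95% interval (for the median density ratio, within the middle quartiles of the 10 sites). The number of sites called maternal was 8 or 9 under each, with Gnas_Nespas as the added site. Some of the 58 say little about stability. Igf2r site 1 had no reads, so leaving it out could not move the share, and halved reads lower the power of tests that already gave 0 calls. Without adjustment, 1 neighbouring pair (Igf2r sites 3 and 4) differed in the split of reads between the crosses, against 0 with it. With CB reads alone, the maternal share was 97.0% at Snrpn, 100% at KvDMR1 and 88.2% at Gnas, where CB gave 17 reads; without the Gnas_ProXL site it was 100% at Gnas. The cause was not tested. With sites extended by 50 and 100 bp, 68.6% and 80.0% of the DMR motifs lay in a site, as wider sites hold more motifs. The motifs were counted in full, so for motif shares the 95% interval is only a yardstick and measures no sampling error. At 50 bp the shares of the purine, Snrpn and Igf2r motifs also left their 95% intervals, at 84.6%, 90% and 100%. Those of the pyrimidine, KvDMR1 and Gnas_ProXL motifs did not. The pyrimidine share still went from 11.1% to 22.2% and the Gnas_ProXL share from 14.3% to 28.6%, within wide intervals on 9 and 14 motifs. All 3 KvDMR1 motifs already lay in the site, so wider borders could not move that share. Of the alternatives, 12 on site borders for motifs by form or cluster were added after the data were seen. Depth limits Gnas most, with 2 and 15 CB reads at its sites, and Igf2r site 1 could not be assigned to an allele. For KvDMR1, with 1 site, no site could be left out.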
